A study of Rattus norvegicus with 12 samples.

Results

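The genes described here are the serpins and the heavy chains of inter-alpha inhibitor, the large families of protease inhibitors that the liver secretes into plasma. A gene was included when a probe set carried its symbol as the only annotated symbol and that symbol began with Serpin or Itih. This gave 37 genes of the 14217 named on the array, 33 of them Serpin and 4 Itih, and 42 probe sets. Where a gene had more than 1 such probe set, as 5 did, the one with the highest mean over the 12 arrays stands for it.

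Expression was measured on Affymetrix rat genome arrays, on which several short oligonucleotides form a probe set for a transcript, in liver and in the renal cortex. The 6 rats were male and 7 to 9 weeks old. The rats were described both as Wistar-derived and as F-344. The groups were liver of rats given trichloroethylene (TCE), liver of control rats, renal cortex of TCE rats and renal cortex of control rats, with 3 arrays each. TCE, an industrial solvent, was given by mouth in corn oil at 16 mg/kg a day for 3 days in a volume of 5 ml/kg, controls had corn oil alone, and tissue was taken 24 h after the final dose. The study's title names inhibition of vitamin B12-dependent methionine salvage in liver by TCE metabolites, and the comparisons ask what the dosing did to transcripts in each organ. Renal cortex is called kidney below. Values are log2 units as deposited, so 1 unit is a doubling, and probe sets differ in brightness, so levels are compared between samples and not between genes.

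Serpins are folded in a strained state. A target protease cuts an exposed loop, the serpin snaps into a stable form, and the protease is left trapped and inactive. Antithrombin, heparin cofactor II, alpha-2-antiplasmin, C1 inhibitor and alpha-1-antitrypsin restrain clotting, clot lysis, complement and neutrophil elastase in this way, and all are made mainly by hepatocytes. Some serpins no longer inhibit proteases and carry hormones or fold collagen instead. Clade B serpins lack a classical signal peptide and mostly act inside cells. The Itih heavy chains are joined to bikunin, an inhibitor encoded by Ambp, and can be passed from it to hyaluronan in the matrix.

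Most members lay in clusters. Chromosome 6 held 11 of them, in the order Serpina10, Serpina6, Serpina1, Serpina11, Serpina12, Serpina4, Serpina5, Serpina3m, Serpina3c, Serpina3l and Serpina3n. Chromosome 13 held 7, namely 6 clade B genes and Serpinc1, and chromosome 17 held 6, namely 5 clade B genes and Itih2. Itih4, Itih3 and Itih1 were neighbours on chromosome 16, Serpinf1 and Serpinf2 lay on chromosome 10, and Serpina7 lay on X.

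The Serpina3 paralogs of rodents arose by duplication, and in the rat several are known to depend on growth hormone acting through STAT5 or to respond in the acute phase through STAT3. The promoters of 3 of them are printed because they are near copies that differ at a STAT motif, and because Serpina3m had the smallest p of all members in liver. Each runs from 250 bases before to 50 bases after the start of the gene, 5′ to 3′ on the gene's strand, from RefSeq on assembly GRCr8. Capitals mark matches to the STAT motif TTCNNNGAA, which reads the same on both strands. Serpina3l is at chr6:129062956-129063255 on the plus strand, Serpina3n at chr6:129088142-129088441 on the plus strand and Serpina3m at chr6:128836790-128837089 on the minus strand.
Serpina3l: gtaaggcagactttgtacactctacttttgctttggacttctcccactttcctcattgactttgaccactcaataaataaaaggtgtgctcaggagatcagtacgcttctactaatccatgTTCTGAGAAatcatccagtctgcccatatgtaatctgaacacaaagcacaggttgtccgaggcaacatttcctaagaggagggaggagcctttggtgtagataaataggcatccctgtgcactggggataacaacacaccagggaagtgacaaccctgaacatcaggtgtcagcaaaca
Serpina3n: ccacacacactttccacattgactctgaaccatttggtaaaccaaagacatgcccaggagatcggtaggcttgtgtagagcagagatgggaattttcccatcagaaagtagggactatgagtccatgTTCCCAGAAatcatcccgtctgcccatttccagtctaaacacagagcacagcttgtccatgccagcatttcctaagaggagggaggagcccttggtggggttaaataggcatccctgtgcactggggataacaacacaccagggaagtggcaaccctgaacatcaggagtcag
Serpina3m: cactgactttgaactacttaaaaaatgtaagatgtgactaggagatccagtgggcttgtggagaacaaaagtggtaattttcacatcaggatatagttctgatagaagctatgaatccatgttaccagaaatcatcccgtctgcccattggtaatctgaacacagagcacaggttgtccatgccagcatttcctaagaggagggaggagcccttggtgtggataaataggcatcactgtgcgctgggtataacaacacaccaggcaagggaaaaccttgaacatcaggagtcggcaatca

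The Serpina3l and Serpina3n promoters each held 1 STAT match, at -129 and -123 from the start, and the Serpina3m promoter held none. Aligned over 257 bases Serpina3l and Serpina3n were 86.4% identical, over 284 bases Serpina3m and Serpina3n were 84.5% identical, and over 277 bases Serpina3l and Serpina3m were 82.3% identical. Promoters were found for 31 of the 37 members. The STAT motif was in 6 of these 31 (Serpina3l, Serpina3n, Itih4, Serpina11, Serpinb6a and Serpinb9b), against 8.68% of 27457 promoters of the same length. The E-box CACGTG, in 6.65% of all promoters and the D-box TTATGTAA, in 0.881%, were searched on both strands and were in 0 of the 31. A match is a string of letters and no measured binding. The probes of near-identical Serpina3 copies may also share transcripts, so the values of single paralogs are uncertain.

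Several facts of the arrays bear on the results. Array medians were 3.51 to 3.54 in liver and 3.88 to 3.96 in kidney. The table has a shared lowest value of 2.17, and a value at or near it gives only an upper bound. The kidney arrays differed in transcripts of hepatocytes. Alb, the gene of albumin, was 10.96, 4.36 and 6.31 in kidney of TCE rats and 9.89, 12.80 and 7.84 in kidney of control rats, and replicate 2 of the controls was highest. The mean of the 7 measured hepatocyte markers of a list of 8 was 4.60 to 5.96 in TCE kidney and 5.12 to 7.08 in control kidney (exact permutation p = 0.3, two-sided). None of the 7 was at the lowest value on all kidney arrays, and Hnf4a, which kidney tubules also express, was 13.53 to 13.74 there. The arrays held the markers of the labelled organ. The mean of 8 kidney tubule markers was 12.93 to 13.28 in kidney and 4.51 to 4.75 in liver. The Gapdh gap, the log2 value of the 3′ control probe set of Gapdh minus that of the 5′ one, which grows as RNA is shorter, was 1.49 ± 0.254 in TCE liver and 0.814 ± 0.0398 in control liver (SD, n = 3 each), and these groups did not overlap (exact permutation p = 0.1, the smallest that 3 against 3 allows). No source says that equal replicate numbers mark 1 rat. In pieces of whole tissue, fewer cells of a type and less RNA per cell cannot be told apart.

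In control rats the liver held far more of most secreted members than the kidney. Of the 29 members bright enough to be tested, 27 passed an adjusted p of 0.05, against 68.6% of all 10654 genes tested (limma, Benjamini-Hochberg). In liver 24 were higher, against 29.7% of all genes, and 3 were lower, against 38.9%. The filter took the mean over both organs. Members at or near the lowest value in kidney, such as Serpina6, Itih2 and Serpina11, were tested only through their liver values. For these only a higher liver level could be found. The median difference of the tested members, liver minus kidney, was 4.67, against -0.10 over all genes tested. Serpini1, the neuronal serpin neuroserpin, and Serpina12, vaspin, were the members tested that did not pass, with adjusted p of 0.0757 and 0.150 by limma. The count of members ranged from 23 to 28 over the alternative settings.

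**Figure D1:**
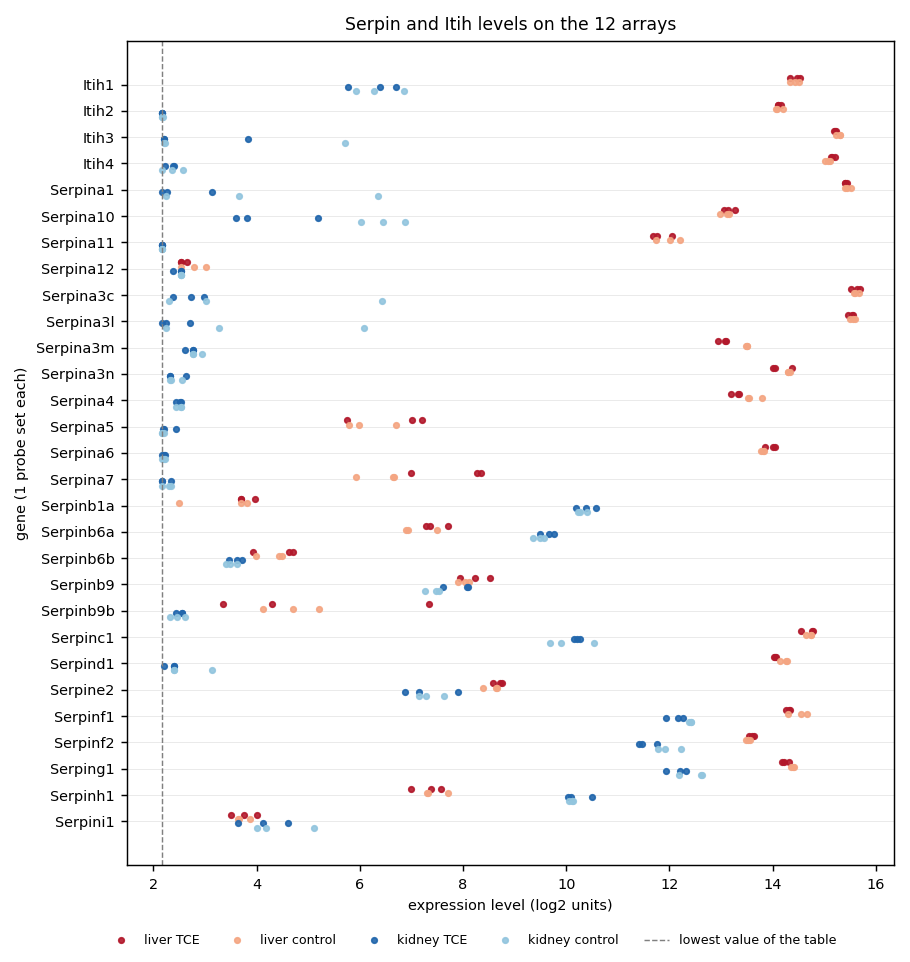
Level of 29 members (rows) on each array, in log2 units on the x axis, with TCE drawn darker than control, liver in red and kidney in blue, and the lowest value of the table as a dashed line. The 4 Itih genes, Serpina1, Serpina3c, Serpina3l, Serpina3n, Serpina6 and Serpind1 sit at about 14 or above on the liver arrays. Of these all but Itih1 have most of their kidney arrays at or toward the dashed line. Serpinc1, Serping1 and Serpinf1 are about as bright in liver, but all their kidney arrays lie far from that line. Serpinb1a, Serpinb6a and Serpinh1 lie to the right in kidney.

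The inter-alpha inhibitor heavy chains showed this in its simplest form. Itih2 was 14.06, 14.20 and 14.07 in control liver and 2.17, 2.18 and 2.17 in control kidney. Itih4, which unlike the other heavy chains is not joined to bikunin, was 15.01, 15.12 and 15.07 in control liver and 2.17, 2.58 and 2.36 in control kidney. All 3 kidney arrays were at or near the lowest value for both, so the differences of 11.94 ± 0.07 and 12.70 ± 0.12 (SE) are lower bounds of the true ones (limma, adjusted p = 1.44e-08 and 2.45e-08). Itih1 was 14.34, 14.52 and 14.43 in control liver and 5.92, 6.85 and 6.27 in control kidney, a difference of 8.08. Its kidney values stood clear of the lowest value on all arrays.

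Itih3 was 15.30, 15.31 and 15.22 in control liver and 2.23, 5.71 and 2.21 in control kidney. The middle kidney value comes from replicate 2, the array with the most Alb, and the other controls were near the lowest value. The difference was 11.90 ± 0.97 (SE) with all arrays and 13.06 without that one. No heavy chain passed the test in TCE liver. Itih1, Itih2, Itih3 and Itih4 differed by 0.03, 0.01, -0.07 and 0.10 between TCE and control liver, and the widest 95% interval, that of Itih1, ran from -0.19 to 0.24. Itih4 was 15.13, 15.14 and 15.22 in TCE liver, just above all 3 controls. Among their partners, Ambp averaged 15.60 ± 0.05 in TCE liver and 15.57 ± 0.09 in control liver (SD, n = 3 each).

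The inhibitory serpins of plasma followed the same pattern between organs. All 12 on the list that were tested were higher in liver, each past the threshold, against 29.7% of all genes. Some of them, such as Serpina3n, Serpina4 and Serpina5, were tested only through their liver values. For these no other direction could be found, so the count is partly set by the filter. Serpina3n was 14.34, 14.30 and 14.29 in control liver and 2.35, 2.55 and 2.32 in control kidney. Serpind1, heparin cofactor II, was 14.28, 14.26 and 14.15 in control liver and 2.40, 3.14 and 2.40 in control kidney. Serpina4, kallistatin, an inhibitor of tissue kallikrein, was 13.54, 13.79 and 13.52 in control liver and 2.53, 2.53 and 2.44 in control kidney. The kidney arrays lay within 0.5 of the lowest value, except replicate 2 for Serpind1. The differences of 11.90 for Serpina3n and 11.12 for Serpina4 are lower bounds, and that of Serpind1 was 11.58, or 11.82 without that array.

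Serpina1, alpha-1-antitrypsin, was 15.43, 15.52 and 15.40 in control liver and 3.66, 6.35 and 2.25 in control kidney. Serpina3c was 15.60, 15.68 and 15.58 in control liver and 3.02, 6.43 and 2.31 in control kidney, and Serpina3l was 15.56, 15.60 and 15.49 in control liver and 3.27, 6.08 and 2.24 in control kidney. Kidney replicate 2 was again the highest control for all 3. Their differences were 11.36 ± 1.01, 11.70 ± 1.07 and 11.69 ± 0.96 (SE), and 12.49, 12.96 and 12.80 without that array. Serpina3m averaged 13.49 ± 0.01 in control liver and 2.83 ± 0.09 in control kidney (SD, n = 3 each). Serpina11 averaged 11.99 ± 0.23 in control liver and was at the lowest value in kidney.

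Some plasma inhibitors were bright in kidney as well. Serpinc1, antithrombin, was 14.74, 14.73 and 14.64 in control liver and 9.69, 10.54 and 9.89 in control kidney. Serping1, the C1 inhibitor, was 14.42, 14.36 and 14.38 in control liver and 12.63, 12.19 and 12.61 in control kidney. Serpinf2, alpha-2-antiplasmin, was 13.48, 13.53 and 13.56 in control liver and 11.77, 11.92 and 12.22 in control kidney. These liver-over-kidney differences of 4.67, 1.91 and 1.55 were smaller than those of the genes just described, with groups that did not overlap. Serpina10, the inhibitor of factor Xa that depends on protein Z, was intermediate, at 12.98, 13.15 and 13.11 in control liver and 6.88, 6.03 and 6.45 in control kidney. Among the control kidneys Serpina10 was lowest on the array with the most Alb, and the source of its kidney values was not tested.

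The non-inhibitory members split. Serpina6, the corticosteroid carrier, was 13.77, 13.83 and 13.80 in control liver and 2.21, 2.22 and 2.17 in control kidney, and its difference of 11.60 ± 0.06 (SE) had the smallest p of all genes in this comparison (limma, adjusted p = 1.44e-08). All 3 kidney arrays were at or near the lowest value, which holds their spread small, so the difference is a lower bound. Serpina7, the thyroxine carrier, was dimmer, at 5.92, 6.66 and 6.65 in control liver, and sat near the lowest value in kidney. Serpinf1, the anti-angiogenic protein PEDF, was 14.66, 14.56 and 14.30 in control liver and 12.41, 12.42 and 12.39 in control kidney. Serpinh1, the collagen chaperone HSP47 of the endoplasmic reticulum, was the reverse, at 7.33, 7.30 and 7.70 in control liver and 10.05, 10.11 and 10.14 in control kidney. Liver minus kidney was -2.66 ± 0.13 (SE; limma, adjusted p = 1.11e-05). It was -1.16 when averaged with a further Serpinh1 probe set, which was at the lowest value on all kidney arrays.

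Of 11 clade B genes, 6 were at the lowest value on all 12 arrays (Serpinb2, Serpinb3, Serpinb7, Serpinb10, Serpinb11 and Serpinb12). With Serpine3, at it on 10 arrays, and Serpini2, at it on 11, these were the 8 members tested in no comparison. The other clade B genes did not share 1 direction. Serpinb1a, which inhibits neutrophil proteases, was 3.71, 2.50 and 3.82 in control liver and 10.27, 10.41 and 10.23 in control kidney, a liver minus kidney difference of -6.96 ± 0.36 (SE; limma, adjusted p = 1.61e-05). The value 3.71 recurred on 3 liver arrays, so the liver level of Serpinb1a may be only an upper bound. Its second probe set averaged 3.42 in control liver and 5.62 in control kidney, and with both probe sets averaged the difference was -4.58. Serpinb6a was 7.49, 6.89 and 6.94 in control liver and 9.57, 9.50 and 9.36 in control kidney. Serpinb9, an inhibitor of granzyme B, was 8.04, 7.91 and 8.12 in control liver and 7.48, 7.53 and 7.27 in control kidney, and Serpinb6b and Serpinb9b were also higher in liver. Serpine2, the thrombin inhibitor protease nexin-1 of tissues, averaged 8.57 ± 0.15 in control liver and 7.36 ± 0.26 in control kidney (SD, n = 3 each).

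TCE did not move any member of the families past the threshold in liver. Of 10552 genes tested 0 passed an adjusted p of 0.05, or 0% (limma, with a smallest adjusted p of 0.106, for Dbp, a circadian transcription factor), and so did 0 of the 29 members. At an unadjusted p under 0.05 there were 1546 genes, or 14.7%, and 4 of the 29 members, with 1 higher (8.81% of all genes) and 3 lower (5.84%). The 3 TCE and 3 control values did not overlap for 7 of the 29 members and for 20.5% of all genes, with 3 higher (12.2% of all genes) and 4 lower (8.31%). Whatever the p, 15 of the 29 were higher and 14 lower in TCE liver, against 56.3% and 43.5% of all genes. The members' median difference was 0.01, against 0.03 over all genes, and the median of their absolute differences was 0.151, against 0.154. The 4 members with an unadjusted p under 0.05 were Serpina3m, Serpina4, Serpina7 and Serpind1.

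Serpina3m, a liver paralog of the antichymotrypsin family, was 13.07, 12.94 and 13.10 in TCE liver and 13.49, 13.48 and 13.50 in control liver. The controls agreed to 0.01 (SD), and all TCE rats lay below them. The difference was -0.46 ± 0.07 (SE), a level 1.37-fold lower, with an adjusted p of 0.126 (limma). In a fit over all 12 arrays with 4 group means, the same difference passed, with an adjusted p of 0.0283 (limma). That fit takes 1 spread for both organs, and Serpina3m was dim in kidney, at 2.62 to 2.94, with 2.78 on 4 arrays. The pass therefore leans in part on dim kidney values. The adjusted p over all settings tried ran from 0.0283 to 0.871.

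The other Serpina3 paralogs, all within the same stretch of chromosome 6, had smaller differences. Serpina3n was 14.01, 14.05 and 14.38 in TCE liver and 14.34, 14.30 and 14.29 in control liver, and the third TCE rat stood above the controls. Serpina3c differed by -0.01 (95% interval -0.19 to 0.17) and Serpina3l by -0.03 (-0.19 to 0.13). Both were among the brightest probe sets of the table, whose highest liver value was 16.4. Whether Serpina3m differs from its paralogs in its response was not tested.

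Serpina7 was 6.99, 8.27 and 8.36 in TCE liver and 5.92, 6.66 and 6.65 in control liver. All TCE rats were above all controls, by a margin that was narrow for replicate 1. The difference of 1.46 ± 0.44 (SE) was the largest of the members in liver, 2.76-fold, with an adjusted p of 0.266 (limma). Serpina4 was 13.20, 13.33 and 13.34 in TCE liver and 13.54, 13.79 and 13.52 in control liver, a difference of -0.33 ± 0.10 (SE; limma, adjusted p = 0.266). Serpind1 was 14.04, 14.02 and 14.06 in TCE liver and 14.28, 14.26 and 14.15 in control liver, a difference of -0.19 ± 0.06 (SE; limma, adjusted p = 0.294). The groups of each of these genes were separate but close.

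Serpina6, Itih4 and Serping1 were the further members without overlap. Serpina6 was 14.05, 14.00 and 13.85 in TCE liver and 13.77, 13.83 and 13.80 in control liver, a difference of 0.17 with a 95% interval of -0.02 to 0.35. Serping1 was 14.22, 14.18 and 14.31 in TCE liver and 14.42, 14.36 and 14.38 in control liver, a difference of -0.15 (-0.32 to 0.01). The gap between the groups was small in both. Serpina1, Serpinc1 and Serpinf2 had intervals that held 0. Serpina1 differed by -0.03 (-0.19 to 0.12) Serpinc1 by -0.01 (-0.22 to 0.21) and Serpinf2 by 0.07 (-0.09 to 0.22). Serpinb9b was the least certain member, at 7.34, 4.31 and 3.34 in TCE liver and 5.20, 4.71 and 4.13 in control liver, with an interval of -2.36 to 2.99. The first TCE rat alone was high. Serpina5, the protein C inhibitor, was also spread, at 7.02, 7.20 and 5.74 in TCE liver and 5.99, 5.79 and 6.69 in control liver. Serpina12 and Serpini1 were dim on all liver arrays and differed by -0.20 and 0.03.

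Other measures moved with the groups in liver. The Gapdh gap did not overlap between them, so a liver fit that takes it in can hardly separate it from TCE. When the fit took in the Gapdh gap per array, the difference was 2.85 for Serpina7, -0.37 for Serpina3m, -0.15 for Serpina4 and -0.13 for Serpind1, of which Serpina7 and Serpina4 moved by over 1.5 times. Neutrophil markers (3 of 6 measured, 1 at the lowest value on all liver arrays) had a mean of 4.82 to 5.51 in TCE liver and 4.31 to 4.39 in control liver. Mesenchymal markers (9 of 9 measured) had a mean of 6.25 to 6.50 in TCE liver and 5.82 to 5.99 in control liver. Erythroid markers (3 of 4 measured) had a mean of 7.92 to 8.60 in TCE liver and 8.98 to 9.55 in control liver, and markers of podocytes, a kidney cell type (4 of 5 measured), 3.92 to 4.17 in TCE liver and 3.50 to 3.76 in control liver. Exact permutation gave p = 0.1 for each. The mean of the hepatocyte markers was 14.35 to 14.44 in TCE liver and 14.34 to 14.45 in control liver. The part of the other cell types in the serpin values was not tested.

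**Figure D2:**
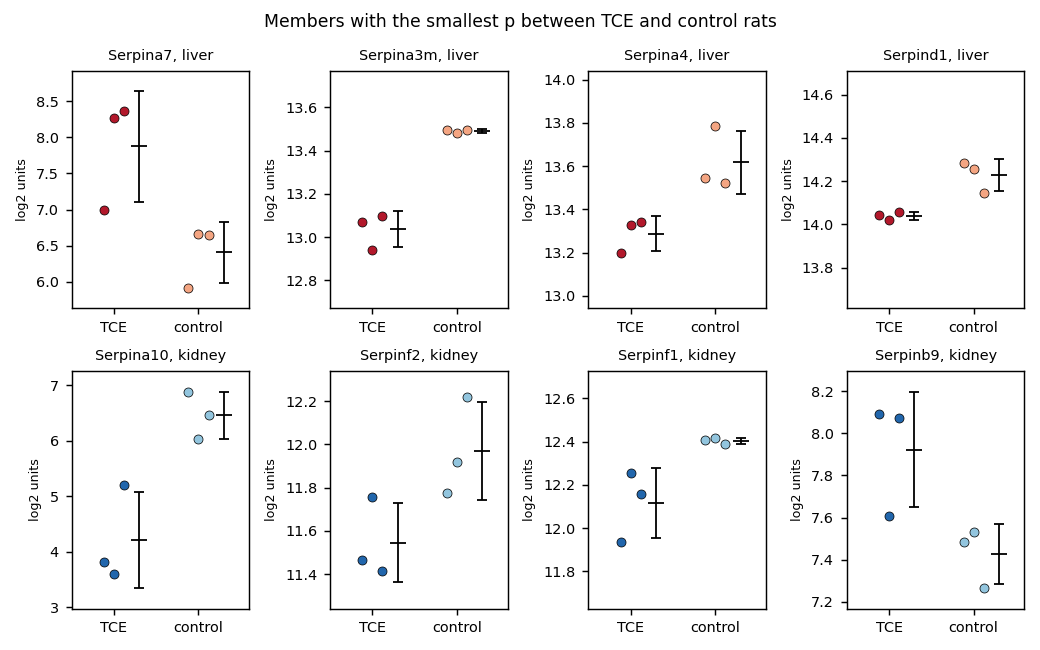
Levels in log2 units on the y axis of the members with an unadjusted p under 0.05, in liver (upper row) and kidney (lower row), with TCE on the left of each panel and control on the right. Points are arrays, bars are the mean and SD of 3, and the y axes differ. In all 8 panels the groups are separate, by the least in Serpinf2 and Serpinb9.

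In kidney 22 members were tested, and the 15 others were too dim. None of the 10563 genes tested passed (0%), nor did any of the 22 members (limma, adjusted p, 0 calls). At an unadjusted p under 0.05 there were 1566 genes, or 14.8%, and 4 of 22 members, with 1 higher (7.56% of all genes) and 3 lower (7.26%). The values did not overlap for 4 of the 22 and for 20.1% of all genes, with 1 higher (10.3% of all genes) and 3 lower (9.81%). Those 4 were Serpina10, Serpinf1, Serpinf2 and Serpinb9. The members' median difference was -0.08, against 0 over all genes. Whatever the p, 7 of the 22 were higher and 15 lower in TCE kidney, against 49.7% and 50.1% of all genes. Among the lower ones Serpina12, Serpina4 and Serpina3m were dim on all kidney arrays, as was Serpinb9b among the higher ones. Without control replicate 2, the array with the most Alb, 21 were tested, 11 higher and 10 lower, with a median of 0.01.

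Serpina10 was 3.82, 3.61 and 5.20 in TCE kidney and 6.88, 6.03 and 6.45 in control kidney. Every TCE rat was below every control, and the third TCE rat was the closest. The difference was -2.25 ± 0.47 (SE), 4.75-fold lower, with an adjusted p of 0.220 (limma). It was -2.46 without kidney control replicate 2, and it passed, with an adjusted p of 0.0445, in the fit over all 12 arrays. That fit takes 1 spread for both organs. The SD of Serpina10 was 0.86 in TCE kidney and 0.43 in control kidney, against 0.11 in TCE liver and 0.09 in control liver. The pass therefore leans on the tighter liver values. In liver the same probe set was 13.14, 13.06 and 13.27 in TCE rats and 12.98, 13.15 and 13.11 in controls, so the groups overlapped. The mean of the hepatocyte markers was 5.11 ± 0.740 in TCE kidney and 6.01 ± 0.992 in control kidney (SD, n = 3 each), and its part in the Serpina10 values was not tested.

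Serpinf2 was 11.47, 11.76 and 11.42 in TCE kidney and 11.77, 11.92 and 12.22 in control kidney, a difference of -0.42 ± 0.15 (SE; limma, adjusted p = 0.309). Serpinf1 was 11.94, 12.25 and 12.16 in TCE kidney and 12.41, 12.42 and 12.39 in control kidney, a difference of -0.29 ± 0.09 (SE; limma, adjusted p = 0.285). The Serpinf1 controls were tightly grouped, and the lowest Serpinf2 control lay just above the highest TCE value. Serping1 was 11.93, 12.32 and 12.21 in TCE kidney and 12.63, 12.19 and 12.61 in control kidney, and its groups overlapped through control replicate 2.

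Serpinb9 was 8.09, 7.61 and 8.07 in TCE kidney and 7.48, 7.53 and 7.27 in control kidney, a difference of 0.50 ± 0.16 (SE; limma, adjusted p = 0.283). Its second probe set was 7.55, 7.45 and 7.29 in TCE kidney and 6.75, 6.92 and 6.97 in control kidney. Both probe sets were higher in every TCE rat than in any control. In liver the same 2 probe sets differed by 0.21 and 0.06. The main Serpinb1a probe set differed by 0.08 in kidney, and its second and dimmer one was 6.01, 6.85 and 6.89 in TCE kidney and 5.94, 6.11 and 4.80 in control kidney.

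Macrophage markers (5 of 6 measured) had a mean of 4.20 to 4.55 in TCE kidney and 4.10 to 4.17 in control kidney, and podocyte markers (4 of 5) 8.66 to 9.02 in TCE kidney and 8.15 to 8.35 in control kidney (exact permutation p = 0.1 each). Their part in the Serpinb9 and Serpinf values was not tested. When the fit took in the Gapdh gap, the difference was 0.09 for Serpinb9, -0.15 for Serpinf2, -0.18 for Serpinf1 and -2.81 for Serpina10, and all but that of Serpina10 moved by over 1.5 times. The gap was 0.51 to 0.87 in TCE kidney and 0.85 to 1.05 in control kidney (exact permutation p = 0.2). The like gap of Actb was 4.20 to 4.36 in TCE kidney and 4.40 to 4.56 in control kidney, without overlap (exact permutation p = 0.1), and its part in these values was not tested.

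For Serpina1, Serpina3l, Serpina3c and Itih3, the kidney difference hung on single arrays. Serpina1 was 3.14, 2.17 and 2.27 in TCE kidney and 3.66, 6.35 and 2.25 in control kidney, and the difference was -1.56 with control replicate 2 and -0.43 without it. That of Serpina3l was -1.49 with it and -0.38 without it. Serpina3c and Itih3 turned round, from -1.22 with it to 0.03 without it and from -0.64 to 0.53. Without control replicate 3 the differences were -2.48 for Serpina1, -2.31 for Serpina3l, -2.03 for Serpina3c and -1.22 for Itih3. That of Itih3 was -1.21 without control replicate 1, -1.18 without TCE replicate 1 and -0.36 without TCE replicate 2 or 3. None passed. Control replicate 2 held the most Alb and the most Ttr, the gene of transthyretin, as the plot of kidney arrays shows.

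**Figure D3:**
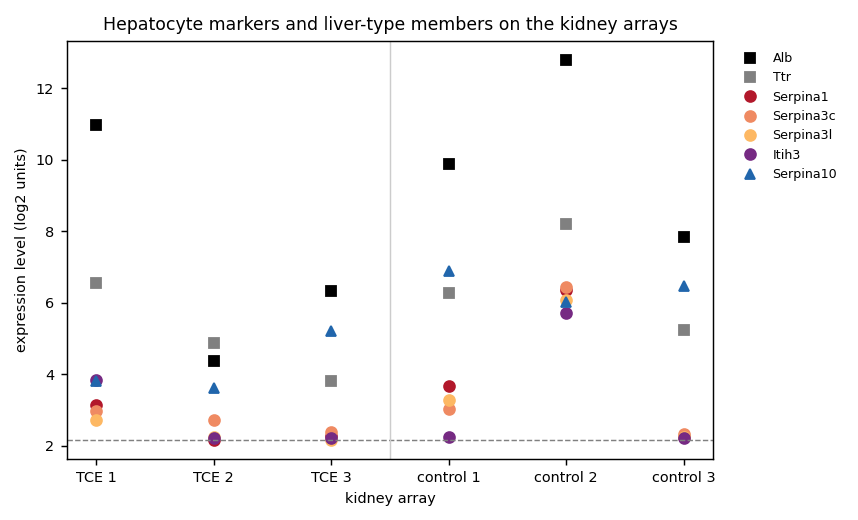
Level in log2 units on the y axis of the hepatocyte markers Alb and Ttr (squares), of Serpina1, Serpina3c, Serpina3l and Itih3 (circles) and of Serpina10 (triangles) on the 6 kidney arrays, TCE on the left. On control replicate 2 Alb reached 12.80 and the circles lie between 5.71 and 6.43. Serpina10 is at 6.03 there, lower than on the other controls. The part of hepatocyte transcripts in these values was not tested.

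The TCE effects in the organs were set against each other over all 12 arrays. Of 10652 genes 57, or 0.535%, had effects that differed, and 0 of the 29 members did (limma, adjusted p). The count of genes was 0 without kidney TCE replicate 1. The fit treats the arrays as independent, although both organs came from the same 6 rats. It also takes 1 spread for both organs, although that of Serpina10 was wider in kidney (SD 0.86 and 0.43) than in liver (0.11 and 0.09). At an unadjusted p under 0.05 there were 5 of the 29, against 17.5% of all genes. The 6 members with the smallest p were Serpina10, Serpina7, Serpina3m, Serpinf2, Serpina4 and Serpina6. The effect of TCE in liver minus that in kidney was 2.32 ± 0.50 (SE) for Serpina10, with 0.08 in liver and -2.25 in kidney (limma, adjusted p = 0.0832). It was 1.51 ± 0.46 for Serpina7 (limma, adjusted p = 0.149). It was -0.35 ± 0.11 for Serpina3m, 0.49 ± 0.17 for Serpinf2, -0.32 ± 0.12 for Serpina4 and 0.17 ± 0.10 for Serpina6 (limma, adjusted p = 0.170, 0.197, 0.227 and 0.399). Serpina7, Serpina4 and Serpina6 were at or near the lowest value on every kidney array, where no effect could be seen, so for these the difference restates that in liver. Serpina3m was also dim in kidney, at 2.62 to 2.94, with 2.78 on 4 arrays, so its difference mostly restates that in liver too. Serpina10 passed without kidney TCE replicate 3 (2.82, limma, adjusted p = 0.00971). Serpina7 had an adjusted p of 0.0407 without liver TCE replicate 1 (1.95, limma), which shows nothing of its effect in kidney.

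**Figure D4:**
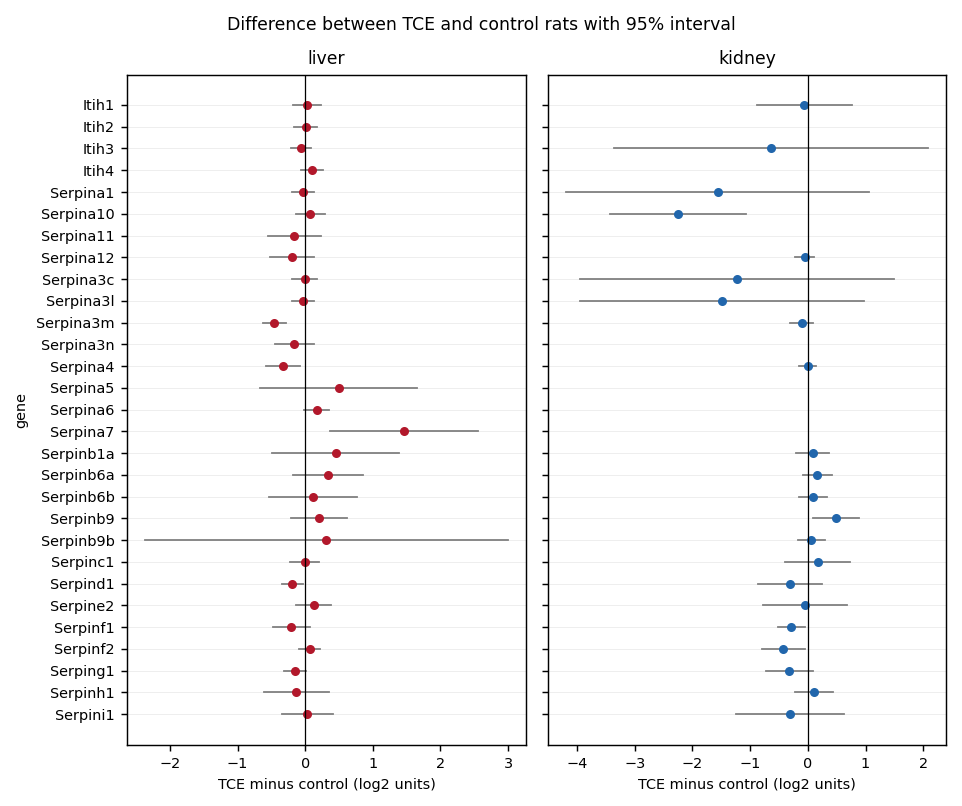
Difference between TCE and control rats in log2 units (x axis, with another range in each panel) for each member tested, in liver and kidney, with limma's 95% interval as a line. In liver most points lie near 0 with short lines, and in kidney the widest lines are those of Itih3, Serpina1, Serpina3c and Serpina3l, and Serpina10 lies at -2.25.

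By role, no gene of the lists that follow passed in either organ. In the fit over all 12 arrays Tmprss2, Pebp1 and Mug1 passed in liver (limma, adjusted p = 0.0481, 0.0469 and 0.0481). Of 12 inhibitory plasma serpins tested in liver 4 were higher and 8 lower (56.3% and 43.5% of all genes), with a median of -0.02. Of 10 in kidney 1 was higher and 9 lower (49.7% and 50.1% of all genes), with a median of -0.32. Of these 10, Serpina4 and Serpind1 were near the lowest value on all kidney arrays, except control replicate 2 for Serpind1. Serpina3m was dim there too, at 2.62 to 2.94, and the differences of Serpina1 and Serpina3c hung on single arrays. The kidney median lies between the values of Serpind1 (-0.31) and Serping1 (-0.32). Without kidney control replicate 2, 9 were tested there, 3 higher and 6 lower, with a median of -0.16. The 5 clade B genes tested were higher in liver of TCE rats, as were 56.3% of all genes, with a median of 0.31. They were also higher in kidney, as were 49.7% of all genes, with a median of 0.09. The liver median is the value of Serpinb9b, the least certain member. The main Serpinb1a probe set differed by 0.45 in liver, or 0.03 without liver control replicate 2, and the second one by -0.43. None of the 5 had an unadjusted p under 0.05 in liver, and without liver TCE replicate 1 Serpinb6b differed by -0.03 and Serpinb9b by -0.86 there. Of the 4 non-inhibitory serpins tested in liver 2 were higher and 2 lower.

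The proteases that serpins act on were listed as well. Of 17 tested in liver 13 were higher and 4 lower (56.3% and 43.5% of all genes). Their median was 0.13, against 0.03 over all genes. Of 16 in kidney 4 were higher and 12 lower (49.7% and 50.1% of all genes), with a median of -0.12, against 0. Without kidney control replicate 2 the kidney median was -0.19. Klkb1, plasma prekallikrein, averaged 13.10 ± 0.09 in TCE liver and 12.78 ± 0.03 in control liver, and C1r, a complement protease held by C1 inhibitor, 13.95 ± 0.13 in TCE liver and 13.51 ± 0.17 in control liver (SD, n = 3 each). Tmprss2, a membrane protease, averaged 5.40 ± 0.02 in TCE liver and 4.86 ± 0.25 in control liver. Masp1, a protease of the lectin pathway, differed by 0.36, and by -0.07 when its probe sets were averaged. In kidney Proc, the gene of protein C, averaged 9.04 ± 0.21 in TCE rats and 9.64 ± 0.11 in controls, and Plat, tissue plasminogen activator, 10.30 ± 0.18 in TCE rats and 9.90 ± 0.10 in controls. The adjusted p of these genes lay between 0.190 and 0.260 (limma). When the fit took in the Gapdh gap, Klkb1 differed by 0.15, against 0.33 in the plain fit, C1r by 0.70, against 0.44, and Plat by 0.20, against 0.40. Averaged over its probe sets Tmprss2 differed by 0.28 in liver, against 0.54.

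Among inhibitors outside the families, 8 of 22 tested in liver were higher and 14 lower (56.3% and 43.5% of all genes). In kidney 13 of 21 were higher and 8 lower (49.7% and 50.1% of all genes). The kidney median was 0.08, or 0.17 without control replicate 2. Mug1, a murinoglobulin related to alpha-2-macroglobulin, averaged 9.72 ± 0.36 in TCE liver and 11.01 ± 0.63 in control liver (SD, n = 3 each; limma, adjusted p = 0.251). Cstb, cystatin B, differed by -0.27 in liver, Pebp1 by -0.33, and Spint2, an inhibitor of membrane serine proteases, by -0.29 in liver and -0.23 in kidney. Agt, angiotensinogen, itself of the serpin fold, averaged 8.18 ± 0.31 in TCE kidney and 8.83 ± 0.10 in control kidney (limma, adjusted p = 0.254). Cst3, cystatin C, differed by 0.34 and Tfpi, the tissue factor inhibitor, by 0.28 in kidney. When the fit took in the Gapdh gap, the differences were -0.52 for Mug1 and -0.04 for Cstb in liver, and -0.20 for Agt, 0.0493 for Cst3, 0.0551 for Tfpi and -0.35 for Spint2 in kidney.

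Of the cofactors and receptors 2 of 5 tested in liver were higher and 3 lower (56.3% and 43.5% of all genes). Thbd, thrombomodulin, averaged 4.67 ± 0.74 in TCE liver and 3.62 ± 0.30 in control liver (SD, n = 3 each, limma adjusted p = 0.326). Of 22 acute phase and growth hormone dependent genes tested in liver 10 were higher and 12 lower, with a median of -0.03. Of 18 in kidney 6 were higher and 12 lower (49.7% and 50.1% of all genes). Their kidney median was -0.24, or -0.16 without control replicate 2. Crp, C-reactive protein, averaged 13.54 ± 0.23 in TCE liver and 14.15 ± 0.15 in control liver (limma, adjusted p = 0.212). When the fit took in the Gapdh gap, the liver differences of Thbd, Crp and Cd44 turned round, to -0.34, 0.0219 and 0.0815. The gap did not overlap between the liver groups, so that fit can hardly separate it from TCE. Thbd was 0.46 with its probe sets averaged and 0.67 without liver TCE replicate 2. In kidney Stat3 differed by -0.29 and Il6st, the receptor chain shared by cytokines of the IL-6 family, by -0.19. Stat3 differed by -0.54 when the fit took in the Gapdh gap and by -0.18 without TCE replicate 2, and Il6st by -0.05 with the gap and -0.03 with its probe sets averaged. Cd44, a hyaluronan receptor, differed by -0.28 in liver and -0.04 in kidney, and Ambp by -0.31 in kidney.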

How the data were processed

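Per the labels, RNA was hybridised to Affymetrix rat genome arrays. The authors deposited log2 values of 31099 probe sets on 12 arrays in a single table, whose scale was read from its range. The packages affy and limma are named in the submitters' processing notes; for background correction, normalization and versions, the sources used here give nothing. Probe sets were named from the platform annotation (20826 with 1 symbol, 436 with several, 9780 with none); 57 control probe sets stayed out of the tests. All 37 members matched RefSeq symbols, with 0 changed.

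Genes with a mean above the 40th percentile of probe sets over the arrays of a fit were tested with limma 3.58.1 in R 4.3.3 (lmFit, eBayes), without covariates, two-sided; p-values were adjusted by Benjamini-Hochberg over all genes of a fit, with a threshold of 0.05. SE and 95% intervals are limma's. Single values per array had an exact permutation test. The script was tested on simulated data. No arrays held identical values. Differences with SE are given for members with an unadjusted p under 0.05 in a TCE comparison, the 6 smallest p for the difference of effects and the 10 largest differences each way between organs; list genes are those with the smallest p, up to 4 a list, and other members are described by levels and intervals. The 9 lists, 10 marker lists and the members were chosen with earlier results of these data known. Alternatives covered the filter, probe set choice, normalization, variance model, replicate block, each array left out, all 12 arrays in 1 fit and the Gapdh gap. The number of arrays limits precision.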

Additional observations from a re-analysis of the deposited data

How the results depend on the processing

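In liver the count of genes past the threshold was 17 without the filter on dim genes, 182 with all 12 arrays in 1 fit, and 0 to 1 when an array was left out. The count of members was 1 with all 12 arrays (Serpina3m, adjusted p 0.0283), and among list genes Tmprss2, Pebp1 and Mug1 passed there. In kidney the count of genes was 2 with no filter, 1 with a stricter one, 1 with eBayes's trend and robust settings, and 20 from all 12 arrays, which also gave 1 member (Serpina10, adjusted p 0.0445). A fit over all 12 arrays has more residual degrees of freedom and 1 spread for both organs. For the difference of effects, 57 genes became 0 to 108 when an array was left out, namely 30, 29 and 93 without liver TCE replicates 1, 2 and 3, 35, 36 and 29 without liver control replicates 1, 2 and 3, 0, 108 and 32 without kidney TCE replicates 1, 2 and 3, and 2 and 18 without kidney control replicates 1 and 3; the members were 0 to 1. Between organs the counts of genes and members stayed within 1.5 times.

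With the replicate block, 9 genes passed for the difference of effects, and 0 members passed in any TCE comparison. Deviations of same-numbered arrays from their group means had correlations of -0.09 to 0.08, with 0 of 3 pairs over 0.1 in every pair of groups, which misses the criterion set for pairing. Each control liver did correlate best with the control kidney of its own number, so whether numbers mark the same rat is not settled.

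Of the members, Serpina3c (0.03), Itih3 (0.53), Itih1 (0.19) and Serpina4 (0.01) turned round in kidney without control replicate 2, and further members that did not pass turned when other arrays were left out. In that setting without control replicate 2, chosen after seeing the data for the lists, the kidney medians were 0.0101 for the members, 0.36 for the heavy chains, 0.23 for their partners and 0 for the cofactors. When the fit took in the Gapdh gap, the liver difference was 0.0815 for Cd44, -0.0744 for Ambp, -0.34 for Thbd and 0.0219 for Crp. In liver that fit can hardly separate the gap from TCE. With the probe sets of a gene averaged, Masp1 in liver was -0.0746. Leaving out an array of the kidney gave -1.10 to 0.49 for Ambp (0.28 without TCE replicate 3) and -0.27 to 0.12 for Cd44 (0.04 without TCE replicate 3, 0.03 without control replicate 3). The cause was not tested. Serpina10 was too dim in kidney to be tested under the stricter filter. Signals near the lowest value of the table bound what can be read in kidney.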
